A study of Rattus norvegicus with 4 samples.

Results

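Cytokines and chemokines are small secreted proteins through which injured tissue signals to blood vessels, microglia and leukocytes. The 10 genes described here are Il1b, Il1a, Il6 and Tnf, which encode proinflammatory cytokines, Il1rn, which encodes the antagonist of the interleukin-1 receptor, and the chemokine genes Ccl2, Ccl3, Ccl4, Cxcl1 and Cxcl2. Members were the non-control probe sets whose only gene symbol in the platform annotation was a listed gene, and this gave 15 of 8740 probe sets. They stood for 9 of the 10 genes, among 4736 genes so named on the array. No probe set had Cxcl1 as its only symbol, and Cxcl1 was not analysed here. Probe sets with several symbols or none were not searched, so whether the array measures Cxcl1 is not shown. The rule itself uses no measured value, but the genes were listed with earlier results of these data known.

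The samples were cerebral cortex taken ipsilateral to an experimental stroke from ovariectomised female rats given 17beta-estradiol or placebo. Per the series design text, an intraluminal occlusion of the middle cerebral artery lasted 2 h. There were 2 arrays with estradiol and 2 with placebo, called estradiol 1 and 2 and placebo 1 and 2, and each carried the pooled RNA of 3 animals. The design text names collection at 6 and 24 h after the occlusion, but the sample labels do not spell out a time, and none is assigned here. Both groups share the ovariectomy and the stroke, and no unoperated or opposite-side cortex was analysed here, so no value shows whether a gene responded to the stroke.

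In injured brain the interleukin-1 and tumour necrosis factor genes are known as early signals that microglia, macrophages and other cells can make. They act through receptors that lead to NF-kappaB and MAP kinases, and these in turn drive genes for chemokines and adhesion molecules. CC chemokines such as Ccl2, Ccl3 and Ccl4 mainly attract monocytes and lymphocytes, and the CXC chemokines Cxcl1 and Cxcl2 attract neutrophils. In tissue RNA, fewer cells of a type and less RNA per cell cannot be told apart.

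Upstream sequence from RefSeq (build GRCr8) was found for 7 of the 10 genes, all except Ccl2, Ccl3 and Ccl4. The windows shown are the 120 bases before the table's start site, read 5′ to 3′ on the gene's strand. They are given for Il1b and Il1a, neighbouring genes on chromosome 3 whose signal stood above background, and for Il6 and Cxcl2, whose windows hold a kappaB-type motif. Capitals mark matches to GGGANNNNCC or TATAAA on either strand.
Il1b (chr3:137036582-137036701, minus strand): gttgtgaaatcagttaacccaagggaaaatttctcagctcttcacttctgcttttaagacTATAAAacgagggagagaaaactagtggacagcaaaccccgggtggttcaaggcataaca
Il1a (chr3:136990018-136990137, minus strand): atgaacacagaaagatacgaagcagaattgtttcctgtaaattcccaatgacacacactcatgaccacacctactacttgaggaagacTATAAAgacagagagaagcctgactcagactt
Il6 (chr4:5894576-5894695, minus strand): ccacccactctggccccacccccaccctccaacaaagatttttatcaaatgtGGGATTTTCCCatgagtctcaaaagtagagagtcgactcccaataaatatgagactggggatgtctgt
Cxcl2 (chr14:17467256-17467375, minus strand): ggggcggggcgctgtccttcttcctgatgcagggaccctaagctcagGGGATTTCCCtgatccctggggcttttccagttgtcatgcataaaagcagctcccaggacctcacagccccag
GGGANNNNCC matched in 3 of the 7 windows, those of Il6, Cxcl1 and Cxcl2, and in 8.80% of 33469 windows of the same length. In Il6 the 2 overlapping matches start 68 and 67 bases before the start site, and the match in Cxcl2 starts 73 bases before it. TATAAA matched in 4 of the 7 windows, at 60 bases in Il1b and 32 in Il1a, and in 6.66% of all windows. The motifs did not overlap each other. A match describes letters alone and shows no binding.

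Background was taken for each array as the brightest of 23 foreign controls, probe sets for transcripts of bacteria, yeast and mouse. This level was 33.9 in estradiol 1, 37.8 in estradiol 2, 37.8 in placebo 1 and 30.1 in placebo 2. Array medians lay between 55.0 and 57.8, the 3′ to 5′ ratio of GAPDH controls, a measure of RNA integrity and labelling, between 1.30 and 1.45, and between 58.9 and 64.6% of probe sets exceeded their array's brightest foreign control. The neuron gene Snap25 stood at 2664 and 2340 under estradiol, against 1958.5 and 3000.5 under placebo, whereas Slc17a7, the vesicular glutamate transporter gene typical of cortical excitatory neurons, was at background on every array by its single probe set, between 7 and 12.1. Striatum markers, 8 measured genes, summed to 2649 and 2362 under estradiol, against 1728 and 1790 under placebo. The difference of this sum lay mostly in 2 genes. Penk stood at 641 and 526 under estradiol, against 174 and 279 under placebo, and Tac1 at 381 and 408, against 108 and 116. Of 7 tested striatum genes, 5 had log2 fold changes above 0 and 2 below, Pdyn with -0.16 and Adora2a with -0.03. Drd2 was at background on every array. Red cell markers, 5 measured genes, summed to 1847 and 4224 under estradiol, against 6095 and 5248 under placebo. The part of either list in the values below was not tested. All levels are deposited linear intensities in arbitrary units, and levels of different probe sets are not comparable with each other.

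Most cytokine probe sets were dim. Of the 15, 5 stood above the brightest foreign control on all 4 arrays (33.3%, against 51.1% of all probe sets), 3 on some arrays, and 7 on none (46.7%, against 28.4% of all). The 5 belonged to Il1b, Il1a, Ccl2 and Ccl4. Tnf, Il1rn and Cxcl2 were at background on every array, as were 1 of the 2 probe sets of Il6, 2 of the 3 of Il1b and 1 of the 3 of Il1a. A filter at the 40th percentile of mean intensity, 37.5, left 6 of the 15, for Il1b, Il1a, Ccl2, Ccl3 and Ccl4, to be tested. The plot of intensities shows both the split between dim and bright members and the spread of the placebo pools.

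**Figure D1:**
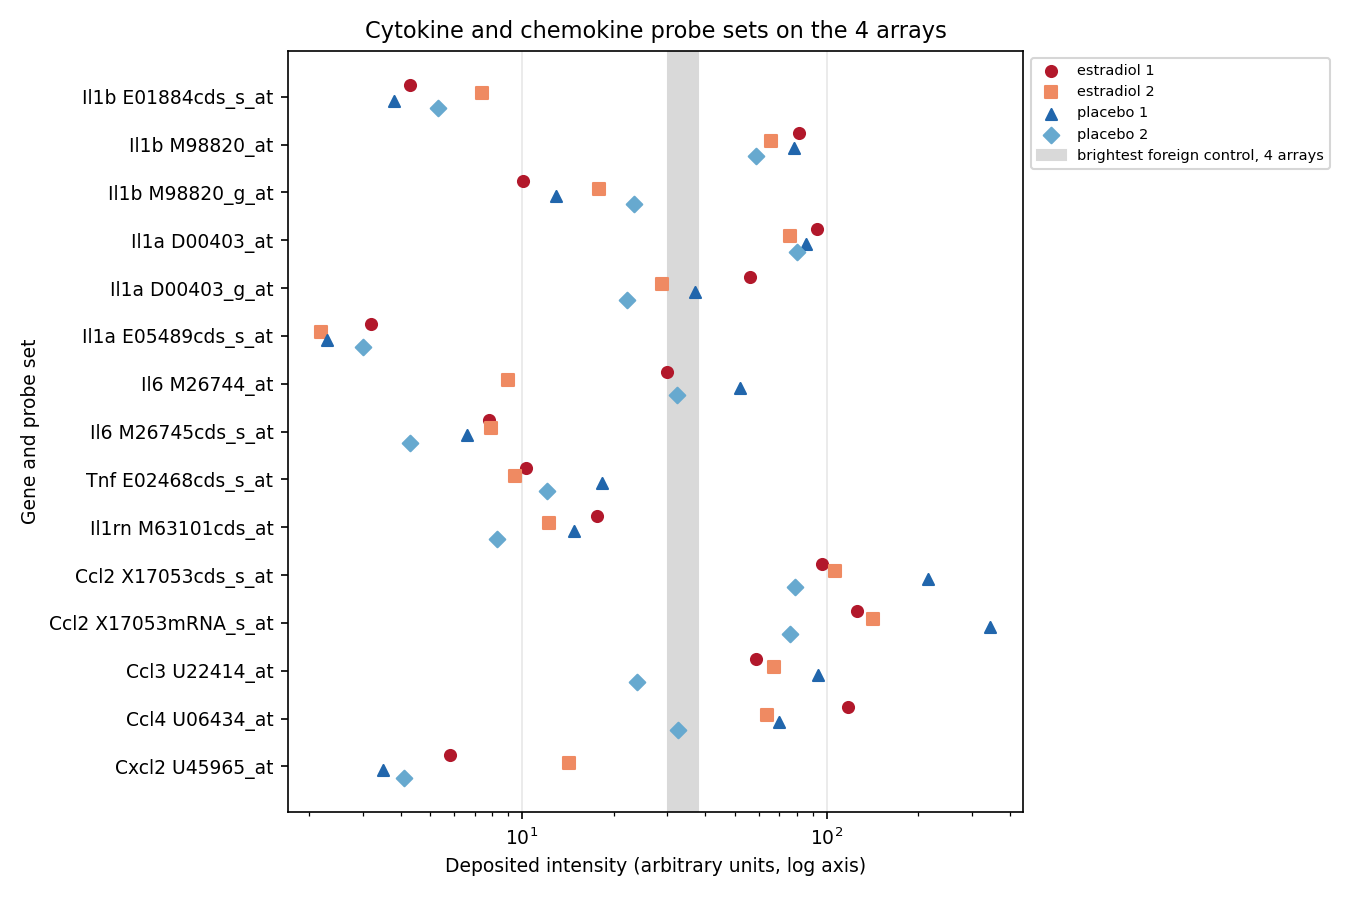
Deposited intensity (log axis) of the 15 cytokine and chemokine probe sets, 1 point per array. The grey band spans the brightest foreign control of the 4 arrays, 30.1 to 37.8. All points of Il1b M98820_at, Il1a D00403_at and both Ccl2 probe sets lie to its right, and Tnf, Il1rn and Cxcl2 lie to its left.

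Il1b encodes interleukin-1 beta, a secreted cytokine that is made as a precursor and cut by caspase-1. Its probe set M98820_at stood at 81.1 and 65.5 in the estradiol pools, against 78.2 and 58.6 in the placebo pools. The groups overlapped, and each array stood between 1.73 and 2.39 times its brightest foreign control. The log2 fold change, on the scale of log2(intensity + 16) used for all fold changes here, was 0.09 ± 0.28 (SE), with a 95% interval from -0.57 to 0.74 (limma, adjusted p = 0.998). The other Il1b probe sets were at background on every array, M98820_g_at at 10.1 and 17.9 under estradiol, against 12.9 and 23.3 under placebo, and E01884cds_s_at at 4.3 and 7.4 under estradiol, against 3.8 and 5.3 under placebo. The level of Il1b thus rests on 1 of its 3 probe sets.

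Il1a, the neighbour of Il1b, encodes interleukin-1 alpha, which signals through the same receptor. Its probe set D00403_at stood at 92.9 and 76.0 under estradiol, against 85.7 and 80.2 under placebo. The estradiol pools lay on either side of both placebo pools, and the mean was 84.5 ± 12.0 with estradiol and 83.0 ± 3.89 with placebo (SD, n = 2 pools each). The log2 fold change was 0.02 ± 0.25 (SE), with a 95% interval from -0.57 to 0.60 (limma, adjusted p = 0.998), and its sign turned with quantile normalisation and with median centring. D00403_g_at, at 55.9 and 28.8 under estradiol, against 37.1 and 22.2 under placebo, was above background in estradiol 1 alone. E05489cds_s_at lay between 2.2 and 3.2 on all 4 arrays, within background.

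Il1rn and Tnf could not be compared as levels. Il1rn, the natural brake on interleukin-1 signalling, stood at 17.7 and 12.3 under estradiol, against 14.8 and 8.3 under placebo, all at background. Tnf, the gene of tumour necrosis factor, stood at 10.3 and 9.5 under estradiol, against 18.3 and 12.1 under placebo. Both estradiol values lay below both placebo values, but all 4 were at background, so no fold is given.

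Il6 encodes interleukin-6, a cytokine that acts through the receptor genes Il6r and Il6st. Probe set M26744_at stood at 30.0 and 9 under estradiol, against 51.9 and 32.4 under placebo. Both estradiol pools were at background and both placebo pools above it. Placebo 2 was nonetheless below the brightest foreign control of either estradiol array, and estradiol 1 exceeded its own second brightest control, 25.9, so no fold is given. Its mean was below the filter, so it was not tested. The other probe set, M26745cds_s_at, stood at 7.8 and 7.9 under estradiol, against 6.6 and 4.3 under placebo, at background throughout and in the opposite order.

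Ccl2, the monocyte chemoattractant gene, had the widest spread over the pools of any tested member. Probe set X17053mRNA_s_at stood at 126 and 142 under estradiol, against 344 and 75.8 under placebo. Both estradiol pools lay between the placebo pools, which differed from each other 4.53-fold, whereas the estradiol pools differed 1.12-fold. The second probe set, X17053cds_s_at, comes from the same sequence record and showed the same order, with 96.3 and 106 under estradiol, against 216 and 78.7 under placebo. The mean of X17053mRNA_s_at was 134 ± 11.1 with estradiol and 209.7 ± 189 with placebo (SD, n = 2 pools each). Its log2 fold change was -0.28 ± 0.55 (SE), with a 95% interval from -1.55 to 0.999, and X17053cds_s_at gave -0.34 ± 0.40 (limma, adjusted p = 0.998 for both). Without placebo 1 the values were 0.71 and 0.31, and without placebo 2 they were -1.26 and -0.99, so 1 placebo pool decided the direction.

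Ccl3 and Ccl4 are neighbouring genes on chromosome 10 that encode the macrophage inflammatory proteins 1 alpha and 1 beta. Ccl3 (U22414_at) stood at 58.5 and 67.1 under estradiol, against 93.6 and 23.9 under placebo. As for Ccl2, the estradiol pools lay between the placebo pools, and placebo 2 was at background. The log2 fold change of Ccl3 was 0.25 ± 0.47 (SE), with a 95% interval from -0.85 to 1.35 (limma, adjusted p = 0.998). It was 0.98 without placebo 1 and -0.48 without placebo 2.

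Ccl4 (U06434_at) stood at 117 and 63.5 under estradiol, against 69.7 and 32.5 under placebo. The estradiol pools differed 1.85-fold and the placebo pools 2.14-fold, and the lower estradiol value fell below the higher placebo value. Placebo 2 was near background, at 1.08 times its brightest foreign control and below the brightest control of every other array. Its log2 fold change of 0.68 ± 0.39 (SE) was the highest among the tested members, with a 95% interval from -0.23 to 1.58 (limma, unadjusted p = 0.123, adjusted p = 0.998). It was 0.30 without estradiol 1, 1.05 without estradiol 2, 1.09 without placebo 1 and 0.27 without placebo 2.

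Cxcl2, a neutrophil attractant that neighbours Cxcl1 on chromosome 14, had 1 probe set. It stood at 5.8 and 14.3 under estradiol, against 3.5 and 4.1 under placebo. Both estradiol values lay above both placebo values, and all 4 were at background, so no fold is given.

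Over the tested members, no log2 difference between estradiol and placebo exceeded that between the 2 placebo pools. For both Ccl2 probe sets and Ccl3 it was larger than the difference between the 2 estradiol pools. With limma and Benjamini-Hochberg adjustment over 5244 probe sets, 0 of the 6 passed the adjusted threshold of 0.05, where 0% of all tested probe sets did. At an unadjusted p below 0.05 there were also 0 of 6, against 3.07% of all tested. The pools of the treatments did not overlap for 0 of 6, against 29.7% of all tested. Log2 fold changes were above 0 for 4 and below 0 for 2, and their median was 0.05, against 0.01 over all tested probe sets. Among all 15 probe sets, filtered or not, the pools did not overlap for 4, with 2 higher and 2 lower under estradiol, and 30.8% of all probe sets did so. With 1 pool left out, the pools did not overlap for 1 of 6 without estradiol 1 (66.2% of all tested), 3 without estradiol 2 (61.7%), 5 without placebo 1 (64.3%) and 3 without placebo 2 (66.9%). The 5 without placebo 1 were all higher with estradiol (31.7% of all tested), and the 3 without placebo 2 were all lower (30.6%). In limma 2 of 6 had an unadjusted p below 0.05 without placebo 1, against 3.93% of all tested, and 2 of 6 without placebo 2, against 4.27%, and 0 passed after adjustment. With 2 pools a group, an exact two-sided permutation test of 1 gene cannot give a p below 0.333. The plot of log2 fold changes shows the intervals and the values with 1 pool left out.

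**Figure D2:**
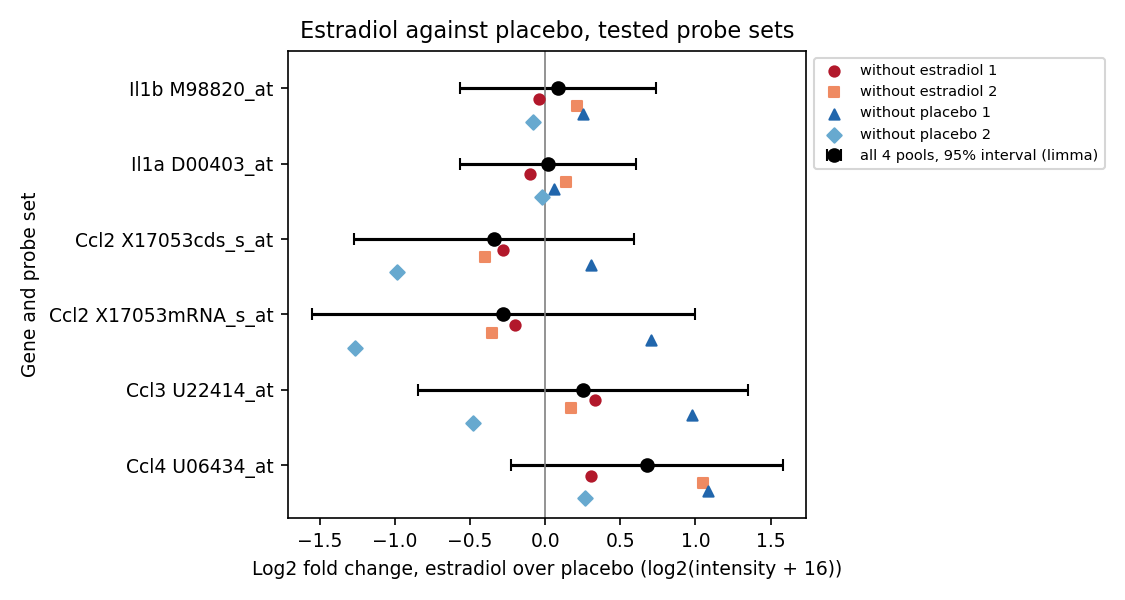
Log2 fold change of estradiol over placebo for the 6 tested probe sets, with 95% limma intervals over 4 pools (black) and the value without each pool (coloured). All 6 intervals include 0, and the points of Ccl2 and Ccl3 without placebo 1 and without placebo 2 lie on opposite sides of 0.

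The placebo pools differed from each other more than the estradiol pools for each tested member except Il1a. The median absolute log2 difference between pools was 0.20 with estradiol and 1.06 with placebo over the 6 tested probe sets, against 0.26 and 0.27 over all tested. Placebo 1 was above placebo 2 in 6 of 6, and in 45.3% of all tested probe sets. It was the highest and placebo 2 the lowest of the 4 pools in 3 of 6, both Ccl2 probe sets and Ccl3, and in 8.71% of all tested. The placebo difference of Ccl2 X17053mRNA_s_at was the largest among the members, and one as large was seen in 0.477% of tested probe sets. For Ccl3 this share was 1.98%. The placebo difference was only 0.34 for Il1b and 0.08 for Il1a, against the median of 0.27 over all tested. Each pool holds 3 animals, and values of single animals were not analysed here.

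Ccl2 X17053mRNA_s_at had the widest range over the pools among tested members. The 3 probe sets of other genes nearest to it in profile, by root mean square difference of centred log2 values over the 4 arrays, were of Enpp2 at 0.12, Apoa1 at 0.16 and Nptx2 at 0.19. Enpp2, which encodes autotaxin and is abundant in choroid plexus, stood at 212 and 253 under estradiol, against 658 and 167 under placebo. Apoa1 encodes an apolipoprotein, and Nptx2 a neuronal pentraxin of synapses. Over 4 arrays such likeness is a description of these pools.

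Most tested markers of choroid plexus and meninges were, like Ccl2, higher in placebo 1 than in placebo 2. Of the 8 tested genes of that list 7 were higher in placebo 1 than in placebo 2, and the summed intensity of its 9 measured genes was 1242 and 5646 under estradiol, against 10492 and 965 under placebo. Ttr, the transthyretin gene of choroid plexus, stood at 165 and 4312 under estradiol, against 8034 and 74.3 under placebo. It was thus also high in estradiol 2, where Ccl2 stood at 142, near its value of 126 in estradiol 1. Vascular markers, 8 measured genes, summed to 1704 and 1362 under estradiol, against 2121 and 1552 under placebo, and 5 of 6 tested were higher in placebo 1 than in placebo 2. Their log2 fold changes were below 0 for 6 of 6, and for 3 of 6 without placebo 1. The part of these cells in the Ccl2 difference was not tested.

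**Figure D3:**
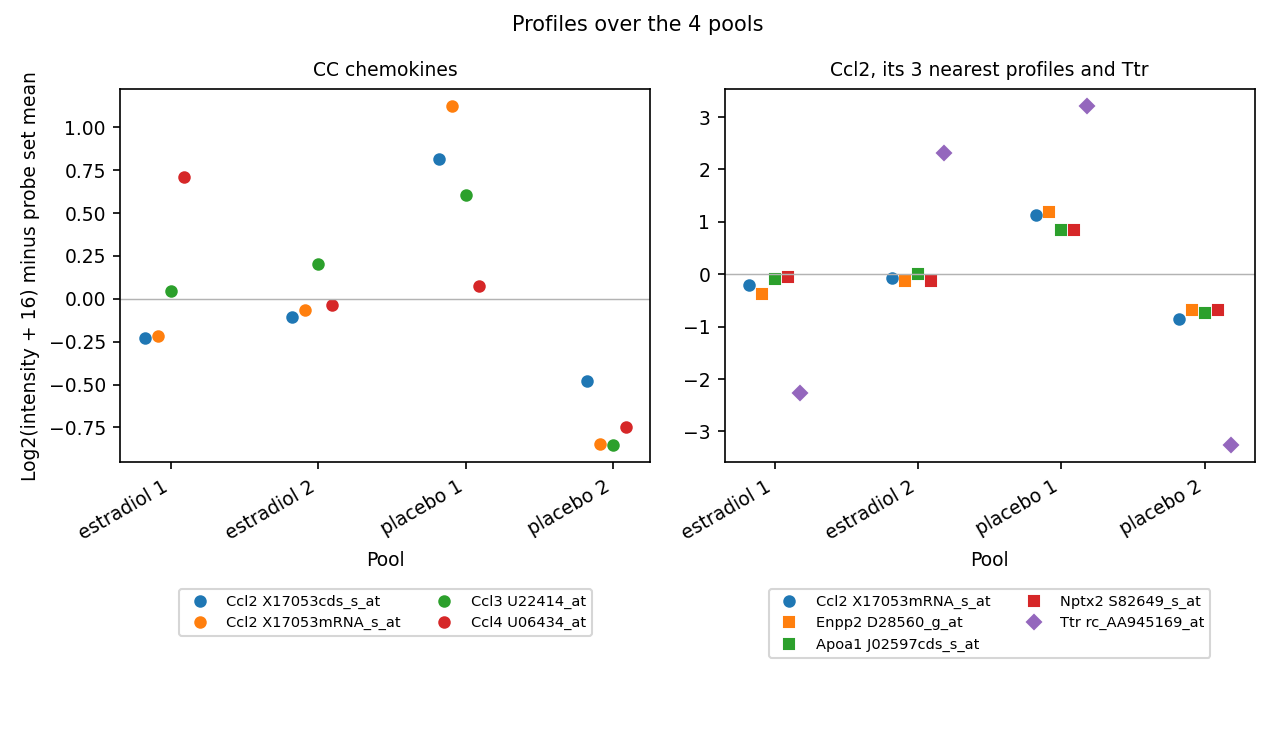
Log2(intensity + 16) minus the probe set's mean over the 4 pools, for the tested CC chemokine probe sets (left) and for Ccl2 with its 3 nearest profiles and Ttr (right). Ccl2 and Ccl3 are highest in placebo 1 and lowest in placebo 2, and Ttr is high in both estradiol 2 and placebo 1. The panels have different vertical scales.

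As summed intensities, markers of cells that make or follow these signals lay closer together over the pools than those of choroid plexus and meninges. Ttr alone made up most of the choroid plexus and meninges sum in estradiol 2 and placebo 1, so this contrast rests largely on that gene. Single genes did not all follow the sums. Cd74 of the microglia and macrophage list and S100a8 of the neutrophil list spread more widely over the pools than Kl and Col1a2 of the choroid plexus and meninges list. Microglia and macrophage markers, 12 measured genes, summed to 2221 and 2480 under estradiol, against 2386 and 2158 under placebo. Of 10 tested, 6 were higher in placebo 1 than in placebo 2. The complement gene C1qb stood at 223 and 355 under estradiol, against 313 and 258.5 under placebo, whereas Itgam and Csf1r, both defining genes of these cells, were at background on every array. Neutrophil markers, 5 measured genes, summed to 402 and 308.5 under estradiol, against 470.4 and 299 under placebo, and 3 of 3 tested were higher in placebo 1 than in placebo 2. The T cell gene Cd3d lay between 5.8 and 8.7, at background, whereas Cd3g lay between 47.3 and 70.0, above it. Of 6 tested neuron markers 0 were higher in placebo 1 than in placebo 2, and the 7 measured summed to 4751 and 4779 under estradiol, against 3924 and 5908 under placebo. Cd14, Cx3cr1, Cxcr2 and Lcn2 are in these lists and in the pathway lists below. The part of these cells in the chemokine values was not tested.

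Other genes of the cytokine pathways were grouped by role, as further cytokines and chemokines, receptors, processing and signalling, and targets. Of 113 listed genes 77 were measured and 53 tested, each by its probe set of highest mean. With limma, 0 of the 53 passed the adjusted threshold (0% of 3181 genes), and 2 had an unadjusted p below 0.05, against 2.58% of all genes. There were 26 above 0 and 27 below, with a median of -0.04 against 0.01 over all genes, and the pools did not overlap for 16 (30.2%, against 30.1% of all genes). Placebo 1 was above placebo 2 in 41 of the 53, against 44.3% of all genes.

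Among the 20 genes with the highest and lowest values of the lists, 15 kept their sign with each pool left out in turn, and Spp1, Cx3cl1, Ccl20, Tnfrsf1a and Selp did not. The 20 were picked for extreme values in these same arrays, which favours a kept sign. The share over all genes was not computed, so the count is a description only.

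Among further cytokines, 3 of 12 tested genes were above 0 and 9 below, with a median of -0.16, and Mif, which encodes macrophage migration inhibitory factor, turned to 0.09 with quantile normalisation, against -0.05 here. Spp1, which encodes osteopontin, had 0.55 and Csf1, the macrophage growth factor gene, 0.29. At the other end Il3 had -0.75 and Lif, a cytokine of the interleukin-6 family, -0.41. Il3 stood at 57.5 and 26.9 under estradiol, against 86.4 and 71.3 under placebo, with estradiol 2 at background. The other Il3 probe set was too dim to be tested. Spp1 stood at 131 and 149.8 under estradiol, against 160.3 and 48.7 under placebo, the same order as Ccl2. Without placebo 2 it had -0.18. Of the 12 genes, 8 were above 0 without placebo 1 and 7 without estradiol 2, so the balance of the list turned with 1 pool.

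All 4 tested chemokines outside the members were below 0, with a median of -0.24, although Cx3cl1 turned to 0.01 with quantile normalisation. Only 2 of the 4 were below 0 without estradiol 2, where Ccl20 had 0.10 and Cx3cl1 0.53, and likewise without placebo 1. These were Pf4, a platelet chemokine gene, with -0.55, Cxcl6 with -0.29, Ccl20 with -0.18 and Cx3cl1, the neuronal chemokine fractalkine, with -0.07. Pf4 stood at 77.2 and 62.9 under estradiol, against 110.5 and 108 under placebo, with both estradiol pools below both placebo pools (limma, adjusted p = 0.998). Ccl5, Ccl11, Cxcl3 and Xcl1 were at background on every array.

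Of 12 tested receptor genes 7 were above 0 and 5 below. The accessory chain gene of the interleukin-1 receptor, Il1rap, had 0.45, but its other probe set gave -0.49, and the first fell to 0.0027 without placebo 2. Cd14, a lipopolysaccharide co-receptor gene, had 0.32 and 0.38 in its probe sets. Il6r had -0.40, with 86.0 and 83.1 under estradiol, against 100.5 and 136 under placebo, and Tnfrsf1a, the main receptor gene for tumour necrosis factor, -0.26, which was 0.01 without estradiol 1 and -0.02 without placebo 1. Il1r1, Tnfrsf1b and Ccr2, the receptor gene for the Ccl2 product, were at background on every array by their probe sets of highest mean.

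Of 11 processing and signalling genes 8 were above 0 and 3 below, with a median of 0.20. Mapkapk2, a kinase downstream of p38 that controls the stability and translation of cytokine mRNAs, stood at 152 and 196 under estradiol, against 99.1 and 36.4 under placebo. Both estradiol pools were above both placebo pools, and the log2 fold change was 1.28 ± 0.38 (SE), with an unadjusted p of 0.0104 and an adjusted p of 0.998 in limma. It was 0.71 without placebo 2. Adam17, the protease that releases tumour necrosis factor from the cell surface, stood at 60.5 and 51.8 under estradiol, against 35.2 and 20.2 under placebo. Both placebo values were at background. With each set to its array's brightest foreign control, the ratio of geometric means, estradiol over placebo, was 1.66, which is no lower limit. The log2 fold change of Adam17 was 0.74 (limma, adjusted p = 0.998), and it was 0.49 without placebo 2. Mapk14, which encodes p38 alpha, had -0.35 and its other tested probe sets 0.02, -0.13 and 0.39, and Stat3 had -0.30 and 0.03.

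Of 14 tested target genes 8 were above 0 and 6 below, with a median of 0.08. Without placebo 1, 12 were above 0 and 2 below, and without placebo 2, 4 were above and 10 below. Without estradiol 1, 5 were above and 9 below, and without estradiol 2, 9 were above and 5 below. The balance of the list thus turned with 1 pool of either treatment. The inducible nitric oxide synthase gene Nos2 had 1.26 in its brightest probe set and -0.08 in the other tested one. The first stood at 193 and 133 under estradiol, against 33.2 and 94.5 under placebo, with placebo 1 at background, and had 0.68 without placebo 1 and 1.84 without placebo 2. Cebpb, a transcription factor gene of the acute phase, stood at 109 and 81.6 under estradiol, against 64.5 and 44.9 under placebo. Its log2 fold change was 0.66 ± 0.29 (SE; limma, adjusted p = 0.998). The other Cebpb probe set was at background on every array, at 19.9 and 10.1 under estradiol, against 10.5 and 6.4 under placebo. Plaur, the urokinase receptor gene, had -0.59 and Selp, the P-selectin gene, -0.37, and without placebo 1 these were -0.14 and 0.19. Placebo 1 was above placebo 2 in 13 of the 14. The plot of pathway lists gives the value of every tested gene.

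**Figure D4:**
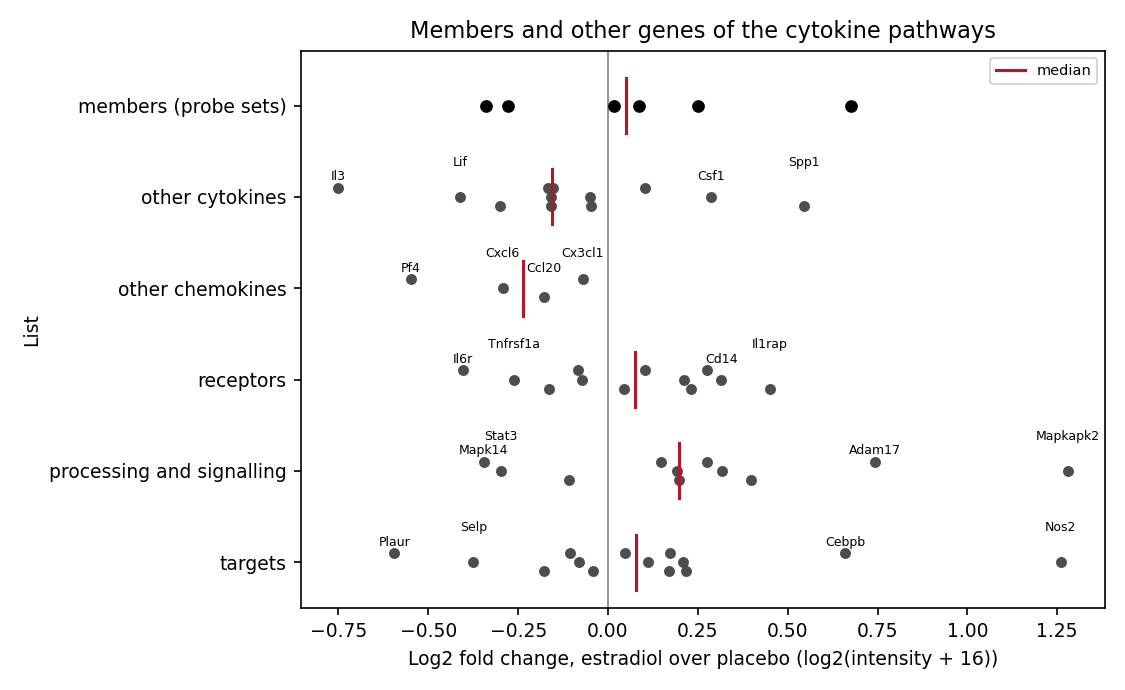
Log2 fold change of estradiol over placebo for the 6 tested member probe sets and for 53 other genes of the cytokine pathways in 5 lists, with 1 point per probe set or gene and a red bar at each median. Points scatter on both sides of 0 in each list except the 4 other chemokines, and none passed the adjusted threshold.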

How the data were processed

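Affymetrix rat genome U34 arrays (set A) gave 1 value per probe set and array. The deposited values are linear intensities that the authors had scaled to a common level, since the trimmed means of the 4 arrays lie between 150.18 and 150.20. The series design text names a scaling factor, and the software behind the values was not given in the sources used here. Of 8799 rows, 59 controls were left out. Of the other 8740, 7006 had 1 symbol in the platform annotation, 308 several and 1426 none. The identifiers of the 9 member genes found were all in a RefSeq gene table (GRCr8), which changed 0 symbols.

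Intensities were taken as log2(value + 16), an offset that understates differences of dim probe sets. Probe sets with a mean below the 40th percentile were left out, which left 5244. Estradiol and placebo were compared with limma 3.58.1 (R 4.3.3; lmFit and eBayes with intensity trend, two-sided, Benjamini-Hochberg), with 2 residual and 5.63 prior degrees of freedom. The fit was run on simulated data with an equal spread for all probe sets and changes larger than those of the members. Its power for changes as small as those of the members was not shown. Tables and plots used Python 3.11.15. The number of arrays limits the precision.

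Named genes were all members, the 2 highest and 2 lowest log2 fold changes of each pathway list, and the 3 nearest profiles. Other names were chosen after their values were seen. Members, lists and rules were chosen with earlier results of these data known. Alternatives were offsets of 1 and 64, other filters and normalisations, no trend, a replicate block and leaving out each pool.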

Additional observations from a re-analysis of the deposited data

How the results depend on the processing

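With limma, 0 member probe sets passed the adjusted threshold under each alternative that kept all 4 pools, and 0 of all tested probe sets did. An unadjusted p below 0.05 was seen for 1 of 6 members with the replicate block, against 210 of all 5244 tested. Under the others that kept all 4 pools it was seen for 0 members. Of the pathway genes, 0 passed the adjusted threshold under these and with probe sets averaged per gene. The number of member probe sets above background on all arrays stayed at 5 with the second brightest foreign control and with quantile normalisation. The count of members whose pools did not overlap, 0 of 6, was 4 of 15 without the filter and between 1 and 5 of 6 with 1 pool left out, where between 61.7 and 66.9% of all tested probe sets did so. The median log2 fold change lay between -0.28 and 0.51 with 1 pool left out.

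With 1 pool left out, the log2 fold change lay between -0.99 and 0.31 for Ccl2 X17053cds_s_at, -1.26 and 0.71 for X17053mRNA_s_at, -0.48 and 0.98 for Ccl3, 0.27 and 1.09 for Ccl4, -0.10 and 0.14 for Il1a and -0.083 and 0.25 for Il1b. Of these, only Ccl4 kept its sign in all 4, and its placebo 2 value was near background. Il1a turned to -0.0056 with quantile normalisation and to -0.016 with median centring. The causes were not tested.

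Pool numbers do not pair the samples by any label, and the differences between pools 1 and 2 correlated at 0.036 between treatments over 5244 probe sets. With a replicate block, Ccl4 kept 0.68, with an unadjusted p of 0.0452 and an adjusted p of 0.989 in limma, and no member passed. The filter at the 60th percentile left only the 2 Ccl2 probe sets. The dimness of 7 member probe sets on every array limits what can be compared.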

Other observations

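The foreign controls include probe sets for 3 mouse interleukins, which read 3.6 to 24.2 in estradiol 1, 3.0 to 9.4 in estradiol 2, 2.4 to 13.4 in placebo 1 and 10.3 to 26.9 in placebo 2. The 9 member probe sets that were not tested read between 2.2 and 55.9 over all arrays. Interferon gamma, Ifng, stood at 20.4 and 24.3 under estradiol, against 51.0 and 14.8 under placebo, above background in placebo 1 alone. Il5 stood at 70.1 and 9.3 under estradiol, against 9.8 and 51.1 under placebo, above background in 1 pool of each treatment. Hmox1, the heme oxygenase gene, stood at 610.2 and 420.1 under estradiol, against 678.5 and 275 under placebo, and Timp1, an inhibitor of metalloproteases, at 414 and 628 under estradiol, against 791 and 240.3 under placebo. In both, placebo 1 was the highest and placebo 2 the lowest of the 4 pools. This order was seen in 5 of the 14 tested target genes, against 8.08% of all genes.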
